A study of Drosophila melanogaster with 30 samples.

Results

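A set of 31 genes was expressed in fGS/OSS and nearly silent in both other cultured ovarian lines. They were chosen from the 17807 genes of the cell line table by their mean normalized counts: at least 200 over the 4 fGS/OSS libraries, and at most 10 over the 4 libraries of OSCs and over the 4 libraries of Δ*l(3)mbt* OSCs. Of 5575 genes at 200 or more in fGS/OSS, 42 were at or below 10 in OSCs and 45 in Δ*l(3)mbt* OSCs, and 31 met both limits. The mirrored rule found 11 genes on only in Δ*l(3)mbt* OSCs and 8 on only in OSCs. The levels in these 3 lines chose the genes, so they are given as a description with no test.

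fGS/OSS is a female *Drosophila melanogaster* culture that mixes cells derived from germline stem cells with ovarian somatic sheet cells, and its labels give a wild-type genotype. OSCs are a cultured line of ovarian somatic cells, and Δ*l(3)mbt* OSCs are the same kind of cell after loss of *l(3)mbt*, which encodes a chromatin repressor of germline genes. The other experiments, which the choice of genes did not use, compared *vas*-GFP+ with *vas*-GFP− cells sorted from ovaries of flies that carry a GFP knock-in at *vas*, and *ovo*-FLAG driven by a constitutive actin promoter with an empty vector, once in OSCs and once in Δ*l(3)mbt* OSCs, 48 h after nucleofection (n = 3 libraries a group). The lines and sorted cells were sequenced as total RNA depleted of ribosomal RNA and the transfected cells as poly(A) RNA. The 4 experiments were normalized in separate tables, so a level in 1 table is set beside a level in another only to show whether a gene was near 0. The labels do not say that replicates came from separate cultures or animals, so p-values measure the spread between these libraries, which may be technical. In these bulk samples fewer cells that express a gene cannot be told apart from less RNA per cell.

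*Drosophila* egg chambers are built by germ cells, which are marked by the RNA helicase Vasa, and by somatic follicle cells, which are marked by the transcription factor Traffic jam. The zinc finger factor Ovo acts in the female germline, while a somatic isoform of the same gene shapes the epidermis. A cultured line can keep part of the expression of its tissue of origin, lose part of it, and express genes that the tissue does not.

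The libraries held between 1632058 and 23083772 counted reads. Replicate 3 of the empty vector in Δ*l(3)mbt* OSCs was the shallowest, and the *ovo*-FLAG libraries of OSCs held 2266961 to 5203428 reads against 7640729 to 12562590 in their empty vector libraries. *ovo* averaged 2941 normalized counts in fGS/OSS, against 1842 in Δ*l(3)mbt* OSCs and 19.3 in OSCs. After nucleofection it averaged 649 with *ovo*-FLAG against 9.50 with the empty vector in OSCs, and 2398 against 952 in Δ*l(3)mbt* OSCs. *l(3)mbt* RNA averaged 5724 in Δ*l(3)mbt* OSCs and 5770 in OSCs, so its transcript level does not check that label. The fGS/OSS libraries carried all 7 ovarian somatic markers at 10 or more but 6 of 9 germ cell markers, with *osk* at 0.247, *otu* at 0.262 and *nos* at 4.75, against 7 of 9 in Δ*l(3)mbt* OSCs and 6 of 9 in OSCs, whereas *vas*-GFP+ cells carried all 9. The germ cell markers summed to between 5900 and 6192 normalized counts in fGS/OSS, against 2959 to 3453 in Δ*l(3)mbt* OSCs and 215 to 300 in OSCs. Most of the fGS/OSS sum was *ovo* and *bam*, at 2941 and 2410, against 1842 and 10.0 in Δ*l(3)mbt* OSCs. *AGO3* was also higher in fGS/OSS than in Δ*l(3)mbt* OSCs (64.5 against 16.9), but it stood at 79.2 in OSCs. *otu* was near 0 in fGS/OSS and in Δ*l(3)mbt* OSCs. *vas* (530 against 1153), *aub*, *orb*, *nos* and *osk* were lower in fGS/OSS than in Δ*l(3)mbt* OSCs.

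The highest of the 31 genes in fGS/OSS were *CG1582*, *Cyp6a20* and *fog*. *CG1582*, a predicted DEAH-box RNA helicase (X:10894747-10899302), had 2733, 2679, 2502 and 2585 normalized counts in the 4 fGS/OSS libraries, against 5.12, 2.36, 4.22 and 7.77 in OSCs and 6.34, 17.7, 7.06 and 3.97 in Δ*l(3)mbt* OSCs. *Cyp6a20*, a cytochrome P450 (2R:14882118-14884046), averaged 1715 ± 77.5 in fGS/OSS, against 3.57 ± 3.20 in OSCs and 2.06 ± 2.22 in Δ*l(3)mbt* OSCs (SD, n = 4 each here and below). *fog*, the secreted ligand that drives apical constriction in the gastrulating embryo (X:22824317-22855194), averaged 1653 ± 85.5 in fGS/OSS, against 4.54 ± 3.26 in OSCs and 3.90 ± 2.60 in Δ*l(3)mbt* OSCs. The lowest fGS/OSS library of any of the 31 genes was at 183, and the highest library elsewhere was at 26.1 in OSCs and 17.7 in Δ*l(3)mbt* OSCs. The rule thus fixed that fGS/OSS did not overlap with the other lines for 31 of 31 genes, where 28.3% of all genes tested lay above OSCs without overlap and 31.6% above Δ*l(3)mbt* OSCs.

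The transcription factors among the 31 genes were *Six4*, *inv* and *fd102C*. *Six4*, a homeobox factor needed in the mesoderm and the somatic gonad (3L:20788886-20792777), had 403, 458, 462 and 355 normalized counts in fGS/OSS, against 5.12, 7.07, 9.50 and 8.64 in OSCs and 1.27, 3.12, 2.65 and 6.61 in Δ*l(3)mbt* OSCs. The engrailed paralogue *inv* (2R:11474465-11509695) averaged 200.2 ± 16.4 in fGS/OSS, against 1.20 ± 1.07 in OSCs and 1.02 ± 0.744 in Δ*l(3)mbt* OSCs, and the forkhead gene *fd102C* on chromosome 4 averaged 274 ± 13.4, against 0.640 ± 1.28 and 1.97 ± 1.04. The fGS/OSS libraries again lay above all others for these 3 genes.

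Receptors, channels and adhesion molecules formed another group. They were *SPR*, the sex peptide receptor, at 218 ± 23.7 in fGS/OSS, *mthl8*, a methuselah-like G protein-coupled receptor, at 346 ± 25.4, *clumsy*, a kainate-type glutamate receptor subunit, at 208 ± 7.72, *ppk13*, a DEG/ENaC sodium channel subunit, at 225 ± 14.7, the sugar receptor gene *Gr64a* at 206 ± 19.1, and *Dscam2*, an immunoglobulin adhesion molecule, at 210 ± 20.2. Each averaged at most 6.36 in the other lines. *mthl8* had 1343 reads over the fGS/OSS libraries against 3 over those of OSCs, a ratio of 547 per counted read with an exact 95% counting interval of 187 to 2655. *Gr64a* had 800 reads in fGS/OSS and none in Δ*l(3)mbt* OSCs, at least 258-fold higher against a floor of 3 reads over the group. Counting intervals and floors cover counting error only.

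Enzymes and structural proteins included *laza*, a lipid phosphate phosphatase, at 1126 ± 84.6 in fGS/OSS, *ATPsynepsilonL*, an ATP synthase epsilon-like subunit, at 626 ± 53.1, *l(2)03659*, an ABC transporter, at 560 ± 13.5, the cuticle protein gene *Cpr64Ac* at 281 ± 46.3, and *CG4927*, a predicted serine protease, at 260 ± 38.7. *Mec2*, of the stomatin family of membrane proteins, averaged 697 ± 36.6. The synaptic vesicle phosphoprotein gene *Syn* averaged 274 ± 14.5 and the calcium-binding protein gene *Cbp53E* 272 ± 16.4. *Cbp53E* had 1058 reads over the fGS/OSS libraries, against 1 over the OSC and 2 over the Δ*l(3)mbt* OSC libraries. *eIF4B*, which in other species helps the helicase eIF4A in translation initiation, had 537, 545, 603 and 635 normalized counts in fGS/OSS, against 0.512, 2.36, 0 and 0 in OSCs. Its 2252 reads in fGS/OSS stood against 3 in OSCs, a ratio of 917 per counted read with an exact 95% interval of 313 to 4450. Other initiation factor genes were looked up after the *eIF4B* values were seen. Those of the cap-binding complex were abundant in both lines, with *eIF4A* at 20328 in fGS/OSS and 28698 in OSCs. *eIF4G1* stood at 9167 and 9948 and *eIF4E1* at 4501 and 4367. *eIF4H1* was at 3787 and 5443, and *eIF4H2* at 0 and 1.61.

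The only noncoding member, *lncRNA:CR43650* (2R:16829095-16839494), is annotated as the host transcript of *mir-8* and averaged 252 ± 14.1 in fGS/OSS, against 7.43 ± 3.07 in OSCs and 7.28 ± 3.23 in Δ*l(3)mbt* OSCs. The remaining genes have no role given here. They included *CG30377* at 1291 ± 49.5, *CG43931* at 953 ± 80.5, *CG4213* at 852 ± 66.4, *CG8539* at 573 ± 31.1, *CG30485* at 492 ± 48.7, *CG1136* at 375 ± 48.4 and *dsx-c73A* at 290 ± 19.1 in fGS/OSS, each at or below 8.31 in both other lines. *CG11893* (291 ± 18.8), which encodes a kinase-like protein, and *CG6329* (225 ± 16.6) complete the set.

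**Figure D1:**
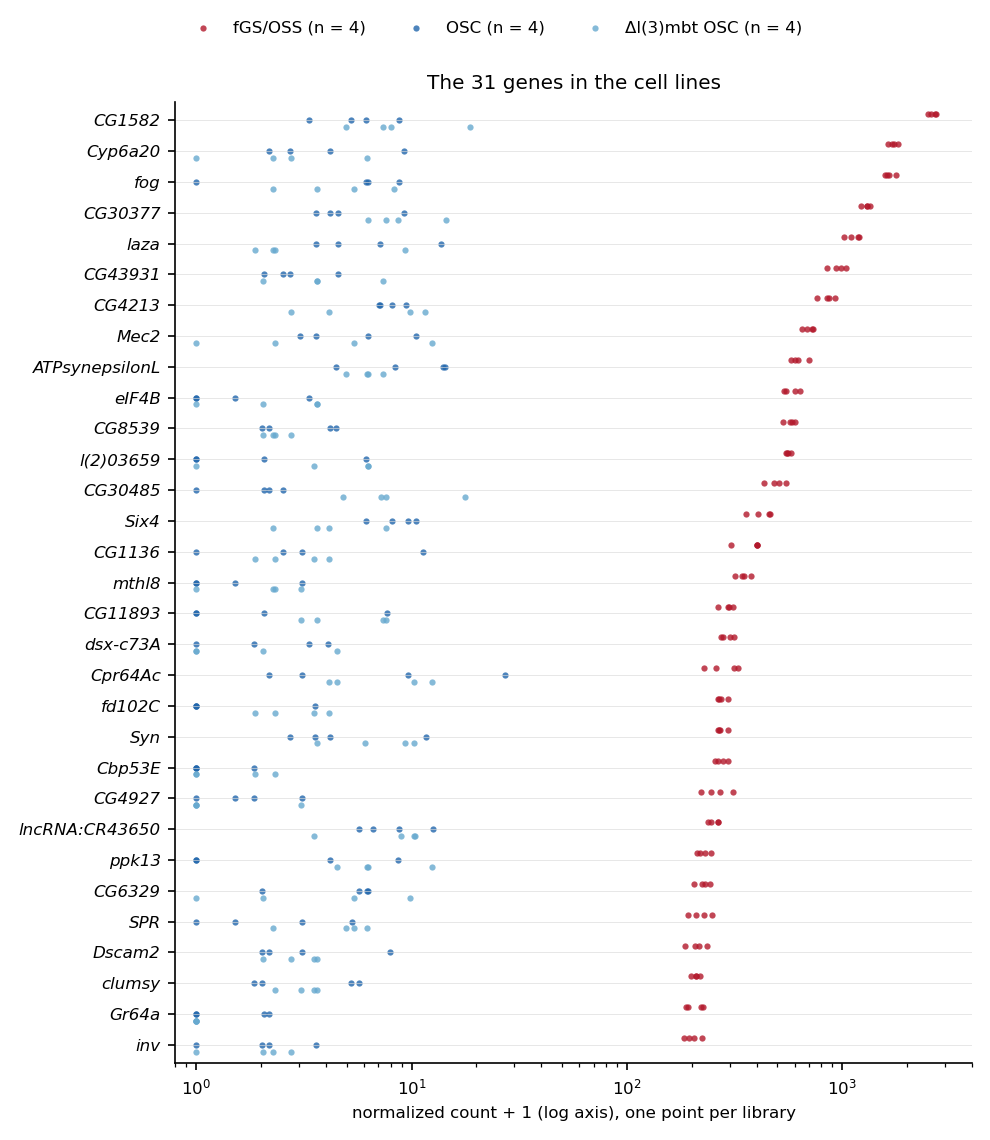
Normalized count + 1 (log axis) of each of the 31 genes in the 4 fGS/OSS, 4 OSC and 4 Δ*l(3)mbt* OSC libraries, 1 point per library. The fGS/OSS points lie at 183 or above and all other points at 26.1 or below, which is what the choice of genes set.

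Replicates agreed closely for these genes in fGS/OSS. The coefficient of variation over its 4 libraries ran from 2.41% for *l(2)03659* to 16.5% for *Cpr64Ac* with a median of 7.34%, against 4.63% over all genes at 200 or more in that line. Per kilobase of exon the fGS/OSS level ran from 16.3 normalized counts for *Dscam2* to 1278 for *ATPsynepsilonL*, with a median of 159. The order by count and the order per kilobase therefore differ. *lncRNA:CR43650*, whose exons span 10400 bases, stood at 24.2 per kilobase, and *CG43931*, with 945 bases, at 1008.

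*inv* at 200.2 and *Gr64a* at 206 lay just inside the lower limit in fGS/OSS, and *CG32040* at 192 and *Tmhs* at 191 just outside. At the upper limit in OSCs *Cpr64Ac* at 9.51 and *ATPsynepsilonL* at 9.28 were inside, and *tsh* at 10.8 and *smal* at 11.8 were outside although they averaged 707 and 380 in fGS/OSS. In Δ*l(3)mbt* OSCs *CG1582* at 8.77 and *CG30485* at 8.31 were inside, and *melt* at 11.8 and *CG11319* at 14.6 were outside. *Cpr64Ac* entered with 26.1 in OSC replicate 1 and at most 8.64 in the other 3 OSC libraries.

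The empty vector libraries gave a measurement of both OSC lines that the rule had not used. In OSCs with the empty vector all 31 genes averaged 10 or less, with a median of 1.53 and a highest mean of 7.01 (*CG4213*), and 4 genes had no read. Among all genes at 200 or more in fGS/OSS, 1.42% averaged 10 or less in these libraries. With the empty vector in Δ*l(3)mbt* OSCs 29 of 31 were at or below 10, where 1.29% of the genes at 200 or more in fGS/OSS were. The 2 exceptions were *CG30485*, at 31.4, 29.8 and 30.3 in the 3 libraries, and *dsx-c73A*, at 11.4, 8.73 and 15.1. In the total RNA libraries of Δ*l(3)mbt* OSCs *CG30485* had reached 16.6 and *dsx-c73A* 3.53, and whether the RNA selection or the nucleofection separates these libraries cannot be told apart.

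In sorted ovarian cells some of the 31 genes were higher in germ cells, some lower, and others near 0 in both populations. Of them 10 averaged 100 or more in at least 1 sorted population, 11 lay between 10 and 100 in the higher one, and 10 were below 10 in both, among them *CG43931*, *ATPsynepsilonL*, *mthl8*, *SPR*, *Dscam2* and *inv*. Of the 24 genes that passed the filter on low values (a mean of at least 2), 2 were higher and 5 lower in *vas*-GFP+ cells (limma, log2 fold change beyond 1 and adjusted p under 0.01), where 7.04% and 7.99% of all 10481 genes tested passed in these directions. The 3 *vas*-GFP+ libraries lay above or below all 3 *vas*-GFP− libraries for 8 genes each way, where 21.9% of all genes tested lay above and 28% below, so the counts of genes that did not overlap, out of 31, were near the background. The 2 called higher were near theirs, and the 5 called lower were a larger share of the 31 than the 7.99% of all genes tested. The germ cell markers summed to between 26459 and 28987 in *vas*-GFP+ and between 428 and 528 in *vas*-GFP− libraries, and the ovarian somatic markers to between 1903 and 3119 and between 13747 and 15227.

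The genes higher in germ cells were the ABC transporter gene *l(2)03659* and *fog*. *l(2)03659* had 399, 202 and 309 normalized counts in *vas*-GFP+ cells, against 15.5, 15.3 and 7.54 in *vas*-GFP− cells, a log2 fold change of 4.47 ± 0.44 (SE, adjusted p = 0.00018). *fog* had 736, 720 and 633 in *vas*-GFP+ cells, against 241, 222 and 194 in *vas*-GFP− cells, a log2 fold change of 1.67 ± 0.15 (adjusted p = 9.8e-05). The groups did not overlap for either gene, and both genes were also detected in the population with the lower level.

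The genes lower in *vas*-GFP+ cells included *Six4* and *laza*. *Six4* had 81.1, 128 and 83 in *vas*-GFP+ cells, against 2008, 2157 and 1999 in *vas*-GFP− cells (log2 fold change −4.42 ± 0.20, adjusted p = 3.7e-06). *laza* had 39.4, 157 and 25.3 in *vas*-GFP+ cells, against 1173, 1307 and 1205 in *vas*-GFP− cells (−4.48 ± 0.59, adjusted p = 0.00088). For both genes the lowest somatic library was far above the highest germ cell library.

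*CG1136*, *CG8539* and the *mir-8* host transcript were lower as well. *CG1136* averaged 26.6 ± 8.86 in *vas*-GFP+ cells and 443 ± 32.6 in *vas*-GFP− cells (SD, n = 3 each), and the estimated change was −4.06 ± 0.31 on the log2 scale with adjusted p = 4.4e-05. *CG8539* had 80.0, 39.1 and 189 in *vas*-GFP+ cells, against 535, 437 and 493 in *vas*-GFP− cells (−2.52 ± 0.51, adjusted p = 0.0071). Leaving out *vas*-GFP+ replicate 1 or any 1 of the *vas*-GFP− libraries took *CG8539* past the threshold, to adjusted p between 0.028 and 0.032, with log2 fold changes from −2.60 to −2.45. *lncRNA:CR43650* averaged 202 ± 45.0 in *vas*-GFP+ cells and 555 ± 45.5 in *vas*-GFP− cells (−1.48 ± 0.20, adjusted p = 0.0009).

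Some of the genes nearly absent from both OSC lines were measured at 69.7 or more in every library of both sorted populations. *CG1582* had 1074, 727 and 945 normalized counts in *vas*-GFP+ cells, against 862, 906 and 1025 in *vas*-GFP− cells, so the groups overlapped (log2 fold change −0.04 ± 0.16, adjusted p = 0.87). *eIF4B* had 133, 69.7 and 93.8 in *vas*-GFP+ cells, against 166, 178 and 137 in *vas*-GFP− cells (−0.73 ± 0.30, adjusted p = 0.1). *CG30377* averaged 541 ± 68.7 in *vas*-GFP+ cells and 347 ± 37.4 in *vas*-GFP− cells (0.64 ± 0.15, adjusted p = 0.016). The groups did not overlap for *eIF4B* and *CG30377*, whose calls missed the threshold. In cultured OSCs the 4 libraries together held 3 reads of *eIF4B* and 25 each of *CG1582* and *CG30377*.

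The rest of the detected genes did not pass in sorted cells. The larger values were *Syn* with 1.16, 18.6 and 0 in *vas*-GFP+ cells, against 50.0, 46.8 and 47.1 in *vas*-GFP− cells (−3.81 ± 1.13, adjusted p = 0.034), *clumsy* with 48.7, 74.4 and 43.3, against 7.73, 6.81 and 13.2 (2.47 ± 0.57, adjusted p = 0.012), and *CG30485* with 19.7, 94.9 and 77.6, against 7.14, 13.6 and 2.83 (2.81 ± 0.84, adjusted p = 0.035). *CG4927* had 19.7, 48.4 and 3.61 against 0, 0 and 0.942, where the 1 read over the *vas*-GFP− libraries gives a ratio of 151 per counted read with an exact 95% interval of 26.3 to 6059 (adjusted p = 0.03). The *vas*-GFP+ libraries held 3236770 to 6203768 counted reads and the *vas*-GFP− libraries 8386303 to 13053953, and the spread between *vas*-GFP+ libraries was wide for low genes.

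**Figure D2:**
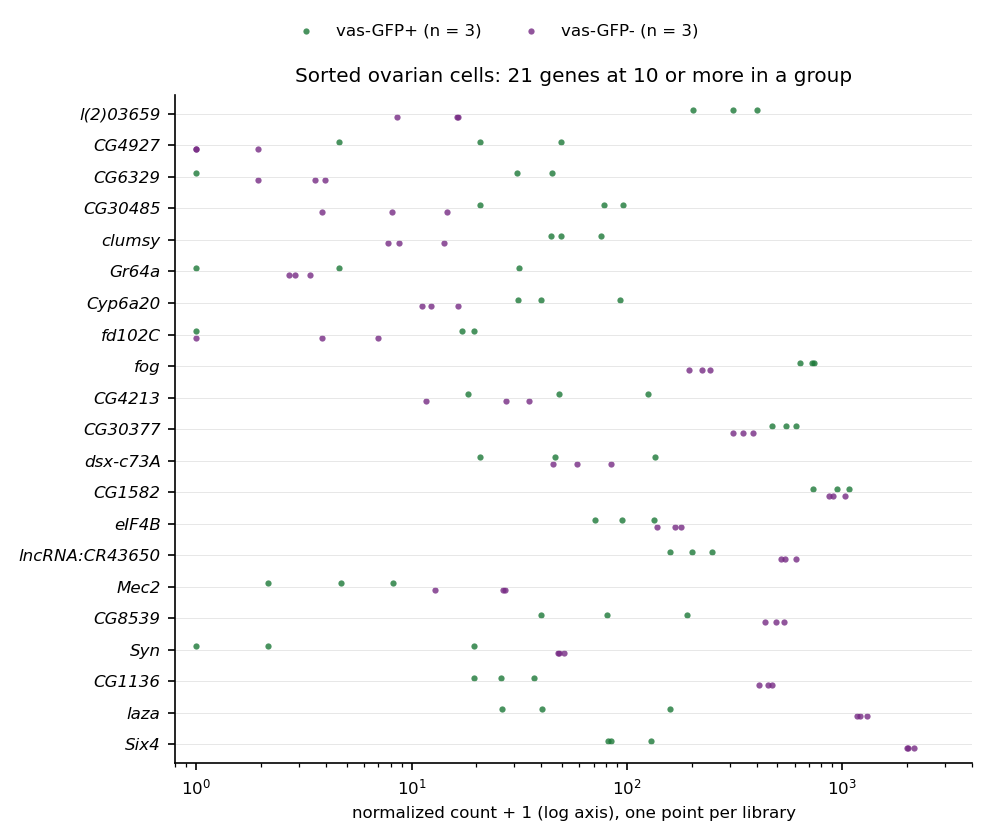
Normalized count + 1 (log axis) in the 3 *vas*-GFP+ and 3 *vas*-GFP− libraries, for the 21 of 31 genes that averaged 10 or more in at least 1 population, ordered by the ratio of the means. *l(2)03659* stands at the *vas*-GFP+ end (399, 202 and 309 against 15.5, 15.3 and 7.54) and *Six4* at the other (81.1, 128 and 83 against 2008, 2157 and 1999), with *CG1582* overlapping in between.

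Ectopic *ovo*-FLAG was set against the empty vector to ask which genes respond to Ovo in cells that make little or some of it. In OSCs 10 of the 31 genes were higher and none lower with *ovo*-FLAG by limma (log2 fold change beyond 0.6 and adjusted p under 0.1, among the 19 that passed the filter), and no gene was lower at an unadjusted p under 0.05 or in edgeR or DESeq2. Over all 9025 genes tested 8.78% were higher and 1.17% lower, and of the 1642 tested genes with an empty vector mean of at most 10, as all 31 have, 25.5% were higher and 0.731% lower. The Δ*l(3)mbt* OSCs had 7 higher and 1 lower among the 21 that passed the filter, with 9.43% and 2.53% over all 9290 genes tested, and with 25.6% higher and 0.819% lower over the 1709 tested genes with an empty vector mean of at most 10. Low genes could pass the filter through the group in which they were high, so the counts over 31 are the ones to read. The shares of low genes count tested genes only and carry the same selection, so they are no like background for a count over 31. Whether the 31 genes responded more often than other low genes was not tested. The median log2 fold change of the tested members carries that selection too. It was 1.19 in OSCs and 1.00 in Δ*l(3)mbt* OSCs, against −0.01 and 0.03 over all genes tested. The 7 genes higher in Δ*l(3)mbt* OSCs were 70.0% of those higher in OSCs and 100% of their own list, and over all genes the 457 higher in both were 57.7% of the 792 higher in OSCs and 52.2% of the 876 higher in Δ*l(3)mbt* OSCs. These experiments share no libraries.

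*dsx-c73A* rose in both lines, with the largest log2 fold change of the members tested in each, on the log2(normalized count + 1) scale. It had 47.4, 38.9 and 71.0 normalized counts with *ovo*-FLAG in OSCs, against 0.784, 4.75 and 3.35 with the empty vector (log2 fold change 3.87 ± 0.41, adjusted p = 1.1e-06). It had, in Δ*l(3)mbt* OSCs, 101, 88.5 and 112 with *ovo*-FLAG, against 11.4, 8.73 and 15.1 with the empty vector (3.02 ± 0.24, adjusted p = 1.1e-08). The groups did not overlap in either line, and these were the highest means of any of the 31 genes with *ovo*-FLAG. In the total RNA libraries of the lines the same gene averaged 290 in fGS/OSS, 1.57 in OSCs and 1.14 in Δ*l(3)mbt* OSCs.

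*clumsy*, the glutamate receptor gene, rose in both lines as well. It had 11.1, 15.6 and 6.87 normalized counts with *ovo*-FLAG in OSCs, against 0.784, 0.950 and 0 with the empty vector. Per counted read the ratio was 17.6 with an exact 95% interval of 5.18 to 92.8 (adjusted p = 0.00094). In Δ*l(3)mbt* OSCs it had 27.3, 13.4 and 20.5, against 2.17, 3.27 and 3.79 (log2 fold change 2.36 ± 0.43, adjusted p = 0.00031). *l(2)03659* had 4.74, 2.59 and 5.73 with *ovo*-FLAG in OSCs, against 0, 0 and 1.12 with the empty vector (2.01 ± 0.71, adjusted p = 0.047), and 15.4, 15.4 and 7.89 in Δ*l(3)mbt* OSCs, against 3.79, 1.45 and 0 (2.56 ± 0.61, adjusted p = 0.003). Leaving out empty vector replicate 1 or 2 ended its call in OSCs (adjusted p = 0.14 and 0.15), and without *ovo*-FLAG replicate 1 or 3 it was too low to be tested there. Both genes were among those with a higher mean in *vas*-GFP+ than in *vas*-GFP− cells, where *clumsy* did not pass.

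*Six4* and *Mec2* rose with *ovo*-FLAG although they had higher means in *vas*-GFP− cells, where *Mec2* did not pass (limma, adjusted p = 0.069). The same held in OSCs for *CG1136* and *lncRNA:CR43650*, which passed as lower in *vas*-GFP+ cells. *Six4* had 9.09, 7.21 and 6.31 normalized counts with *ovo*-FLAG in Δ*l(3)mbt* OSCs, against 1.08, 0 and 0 with the empty vector (log2 fold change 2.73 ± 0.66, adjusted p = 0.0036). In OSCs it had 6.33, 15.6 and 4.58, against 3.14, 1.90 and 2.23 (1.38 ± 0.53, adjusted p = 0.072), a call lost at adjusted p from 0.12 to 0.24 when *ovo*-FLAG replicate 2 or any 1 empty vector library was left out. *Mec2* had 19.0, 23.3 and 13.7 with *ovo*-FLAG in OSCs, against 3.14, 1.90 and 4.47 (2.26 ± 0.42, adjusted p = 0.00053), and 17.5, 23.7 and 16.6 in Δ*l(3)mbt* OSCs, against 9.75, 13.5 and 3.79 (1.14 ± 0.41, adjusted p = 0.041). The call for *Mec2* in Δ*l(3)mbt* OSCs was lost without *ovo*-FLAG replicate 2 (adjusted p = 0.17).

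The cuticle protein gene *Cpr64Ac* and the P450 gene *Cyp6a20* complete the 7. *Cpr64Ac* averaged 14.1 ± 3.77 in OSCs with *ovo*-FLAG and 4.22 ± 1.69 in those given the empty vector (1.55 ± 0.42, adjusted p = 0.011), and in Δ*l(3)mbt* OSCs 14.7 ± 7.91 with *ovo*-FLAG and 3.8 ± 3.55 without (2.05 ± 0.67, adjusted p = 0.029). Without *ovo*-FLAG replicate 1 its call in Δ*l(3)mbt* OSCs was lost at adjusted p = 0.16. *Cyp6a20* averaged 8.81 ± 0.909 with *ovo*-FLAG and 2.68 ± 1.08 without it in OSCs (1.45 ± 0.48, adjusted p = 0.034), and 8.35 ± 3.90 with and 2.48 ± 2.15 without it in Δ*l(3)mbt* OSCs (1.63 ± 0.66, adjusted p = 0.071). Adjusted p for *Cyp6a20* ended between 0.11 and 0.27 when empty vector replicate 2 or 3 was left out in OSCs, or empty vector replicate 3, *ovo*-FLAG replicate 1 or *ovo*-FLAG replicate 2 in Δ*l(3)mbt* OSCs. DESeq2 on the recovered reads did not call *Cyp6a20* and *Mec2* in Δ*l(3)mbt* OSCs (adjusted p = 0.21 and 0.2).

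*CG1136*, *lncRNA:CR43650* and *ATPsynepsilonL* passed in OSCs. *CG1136* had 22.1, 10.4 and 9.17 normalized counts with *ovo*-FLAG, against 0.784, 2.37 and 2.23 with the empty vector (2.37 ± 0.51, adjusted p = 0.002), and in Δ*l(3)mbt* OSCs it was too low to be tested. *lncRNA:CR43650* averaged 12.2 ± 3.10 with *ovo*-FLAG and 3.35 ± 0.563 without it in OSCs (1.58 ± 0.43, adjusted p = 0.011), against a log2 fold change of 0.85 ± 0.38 in Δ*l(3)mbt* OSCs (adjusted p = 0.1). *ATPsynepsilonL* averaged 9.49 ± 3.33 with *ovo*-FLAG and 3.46 ± 0.405 without it (1.19 ± 0.46, adjusted p = 0.069), a call lost at adjusted p from 0.13 to 0.17 without *ovo*-FLAG replicate 2 or 3 or any 1 empty vector library. DESeq2 did not call *Six4* or *ATPsynepsilonL* in OSCs (adjusted p = 0.11 and 0.16). The difference between the effects in the 2 lines was tested for 17 of the 31 genes, and none differed at an adjusted p under 0.05 or an unadjusted p under 0.05. The smallest unadjusted p was 0.051, for *CG11893*, so the calls that passed in OSCs alone are not shown to differ between the lines.

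*CG30485* was lower with *ovo*-FLAG in Δ*l(3)mbt* OSCs, at 25.2, 13.4 and 21.3 against 31.4, 29.8 and 30.3 with the empty vector (−0.63 ± 0.28, adjusted p = 0.092). The estimate lay beside both thresholds and passed neither edgeR nor DESeq2. Leaving out *ovo*-FLAG replicate 2 or 3 or empty vector replicate 1 or 2 also ended it, at adjusted p from 0.13 to 0.34. For *CG1582*, *fog*, *eIF4B*, *mthl8*, *Cbp53E*, *CG43931* and *inv* no mean exceeded 3.11 with *ovo*-FLAG in either line. *laza* had 3.50, 1.03 and 1.58 normalized counts with *ovo*-FLAG in Δ*l(3)mbt* OSCs, against no read with the empty vector, at least 3.66-fold higher with the floor set at 3 reads over the group. *Gr64a* had 1.40, 1.03 and 3.15 there, against no read with the empty vector, at least 3.20-fold higher by the same floor. Both genes fell below the filter there, and without it both passed. In *ovo*-FLAG OSCs 3 of 31 genes had no read and 8 had 1 to 3 reads. A small response of genes this low could not be seen at this depth. A large one could, as *clumsy* passed there with 3 reads under the empty vector and 19 under *ovo*-FLAG.

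**Figure D3:**
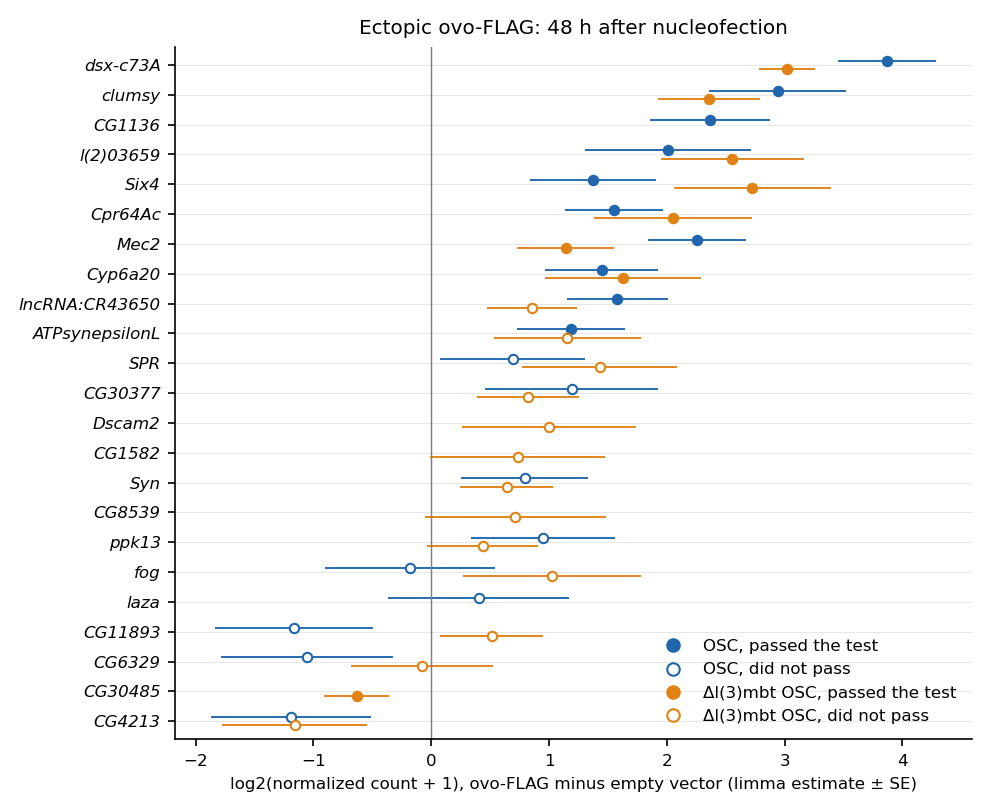
limma estimate ± SE of the change in log2(normalized count + 1), *ovo*-FLAG minus empty vector, in OSCs and in Δ*l(3)mbt* OSCs, for the 23 of 31 genes tested in at least 1 line. Filled points passed the test, 10 in OSCs and 8 in Δ*l(3)mbt* OSCs, and all but *CG30485* lie to the right of 0.

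**Figure D4:**
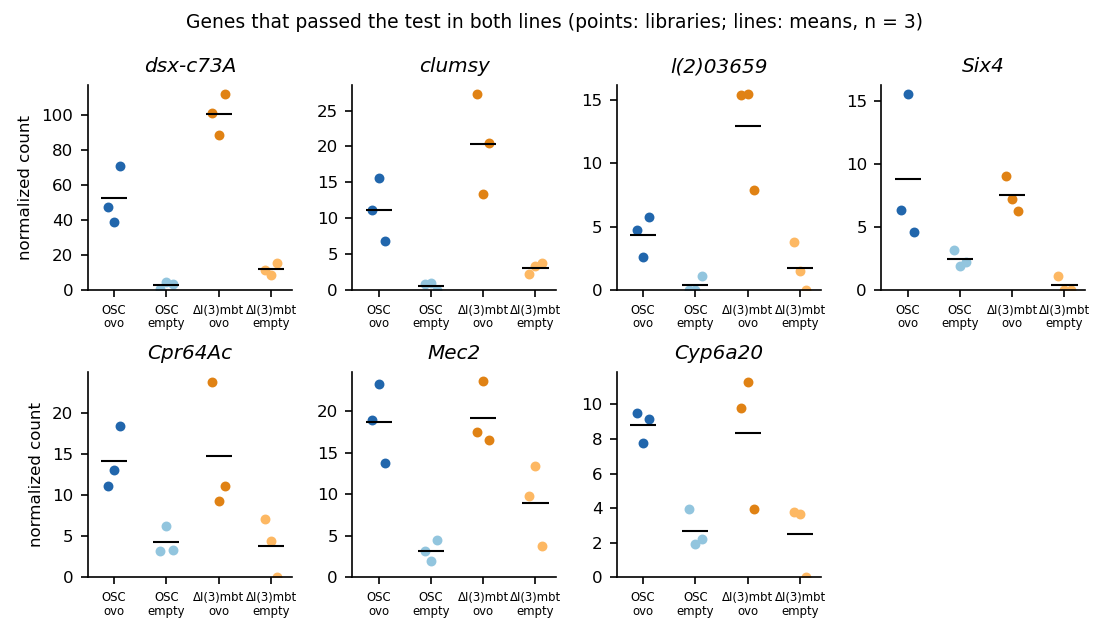
Normalized counts of the 7 genes that passed the test in both lines, with the 3 libraries of each group as points and their mean as a line. The highest mean, 101 for *dsx-c73A* in Δ*l(3)mbt* OSCs with *ovo*-FLAG, is 1 of 7 panels whose vertical axes differ.

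The 31 genes lay on every major chromosome arm, with 11 on 3L, 9 on 2R, 4 on X, 3 each on 2L and 3R and 1 on chromosome 4. These were 35.5% of the 31 genes on 3L and 29.0% on 2R, against 20.6% and 21.2% of all genes at 200 or more in fGS/OSS. Of the 31, 13 (41.9%) had another of them within 200 kb, and 8.82% of the 5520 other genes at 200 or more in fGS/OSS had 1 of the 31 within that distance. The closest pairs were *CG6329* and *CG30485*, 16.4 kb apart on 2R, *Gr64a* and *CG1136*, 18 kb apart on 3L, and *ATPsynepsilonL* and *Syn*, 68.4 kb apart on 3R. *Cpr64Ac* lay 152 kb beyond *CG1136*, and *CG43931* lay 105 kb from *Six4*. No test was made of these shares.

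Neighbouring genes outside the set were compared with the genes at large. Of the 61 nearest protein-coding neighbours 40 could be tested. Of these 17 (42.5%) were higher in fGS/OSS than in OSCs and 6 (15%) lower (limma, log2 fold change beyond 0.6 and adjusted p under 0.05). Over all 9533 genes tested, noncoding ones included, 18% were higher and 18.3% lower. Low neighbours could also pass the filter through the line in which they were high. Among the tested genes 2, 3 and 4 places away on each side 35.9%, 26.2% and 33.3% were higher. Of the 61 nearest neighbours 6 (9.84%) averaged over 10 in fGS/OSS and at most 10 in OSCs, as did 2.29% of all 13910 protein-coding genes. These shares are descriptions of genes that lie together, and the neighbours named next were chosen after their values were seen.

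On 2R *CG6357* and *CG30484* lie between the members *CG6329* and *CG30485*. *CG6357* averaged 1079 ± 23.2 in fGS/OSS and 9.64 ± 4.48 in OSCs (log2 fold change 6.80 ± 0.31, adjusted p = 9.2e-09), and *CG30484*, 50 bases from *CG30485*, averaged 2011 and 11.3 (7.39, adjusted p = 1.8e-11). In Δ*l(3)mbt* OSCs *CG30484* stood at 321 and *CG6357* at 63.6, while the rule itself kept the members at or below 10 there. *CG30485* averaged 8.31 there against 0.943 in OSCs. With the empty vector it averaged 30.5 in Δ*l(3)mbt* OSCs and had no read in OSCs.

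Some neighbours of other members were also higher in fGS/OSS than in OSCs. *Cyp6a9*, 746 bases from *Cyp6a20*, averaged 819 in fGS/OSS, against 15 in OSCs and 5.49 in Δ*l(3)mbt* OSCs. Whether reads were shared between these 2 related P450 genes was not tested. *CG42346*, which overlaps *fog* on the other strand, averaged 888, against 12.3 and 12.9, in counts that used strand. *en*, the neighbour and paralogue of *inv*, averaged 73.3 ± 16.0 in fGS/OSS, with no read in OSCs and 1.14 ± 1.10 in Δ*l(3)mbt* OSCs. Near *Gr64a* the sugar receptor gene *Gr64f* averaged 98.3, against 0.264 and 0, while *Gr64b* and *Gr64c* were at 0 in all 3 lines. *fng*, which encodes a glycosyltransferase that modifies Notch, lies near *CG43931* and averaged 10157 in fGS/OSS against 387 in OSCs.

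**Figure D5:**
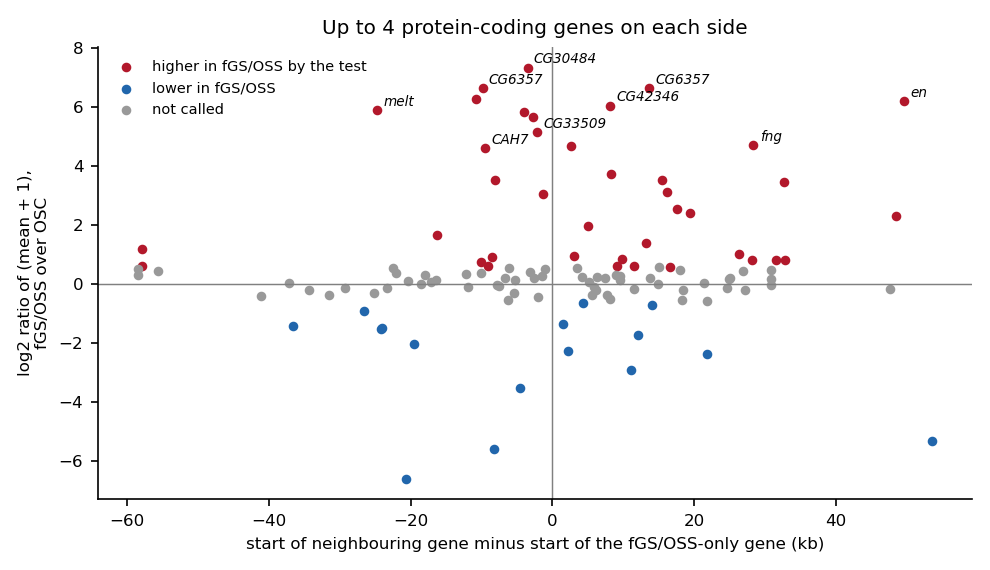
log2 ratio of (mean + 1) in fGS/OSS over OSCs for up to 4 protein-coding genes on each side of the 31 genes, against the distance between gene starts in kb, for neighbours within 60 kb that averaged 10 or more in either line (118 points). Red points passed the test as higher and blue points as lower in fGS/OSS, and *CG30484*, *CG6357* and *en* are among the points above 6.

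Other genes of the lists examined were higher or lower in fGS/OSS. Of the 19 lists, 3 hold a member. Of the 611 non-member genes in the lists, 363 could be tested against OSCs. There 32.8% were higher and 27% lower (18% and 18.3% of all genes tested). Against Δ*l(3)mbt* OSCs 366 could be tested, where 32% were higher and 32.8% lower (18.8% and 21.8% of all genes tested). These comparisons share the fGS/OSS libraries. Homeobox and segment polarity genes, the list of *Six4* and *inv*, had 13 of 26 higher and 2 lower than in OSCs, including *en*, *tsh* (707 ± 29.0 in fGS/OSS, 10.8 ± 4.24 in OSCs), *bab1* (789 and 82.5) and *ct* (1622 and 180). The median log2 fold change of that list was 0.66, against −0.01 over all genes tested, and 10 of 25 were higher and 4 lower than in Δ*l(3)mbt* OSCs. Cell adhesion and guidance genes, the list of *Dscam2*, had 20 of 47 higher, such as the Slit receptor gene *robo2* (1510 and 51.7), and 12 lower, among them *Dscam1* (67.3 and 257) and *Dscam3* (196 and 3734), with a median of 0.33. The forkhead and patterning list of *fd102C* had 3 of 12 higher and 5 lower, with a median of −0.03.

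The families defined by gene symbol that hold a member each had more genes lower than higher in fGS/OSS than in OSCs. Over all 9533 genes tested 18% were higher and 18.3% lower, and no test set a family against these shares. Apart from *Cyp6a20*, 16 of 52 cytochrome P450 genes were higher and 21 lower than in OSCs, with *Cyp4p2* at 8.76 in fGS/OSS and 2472 in OSCs. Apart from *Gr64a*, 7 of 36 chemoreceptor genes were higher and 14 lower. Apart from *ppk13*, 2 of 17 ligand-gated and DEG/ENaC channel genes were higher and 8 lower, and apart from *Cpr64Ac*, 2 of 10 cuticle protein genes were higher and 5 lower. The medians of these families were −0.18, −0.16, −1.21 and −0.91 in the order given. Noncoding RNA genes other than *lncRNA:CR43650* had 119 of 498 higher and 143 lower.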

How the data were processed

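The authors used cutadapt 1.18 for trimming, STAR 2.7.3a for alignment and strand-aware featureCounts (Subread 1.5.3, Ensembl BDGP6 annotation) for counting, and deposited a signal, gene counts divided by DESeq2 1.30.1 size factors, in 4 tables for 30 libraries. Their 5 tables of fold changes and p-values were not used. The members and gene lists were chosen with earlier results of these data known. The sample groups follow the labels.

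Differences were tested with limma 3.58.1 (R 4.3.3, trend and robust variance) on log2(normalized count + 1), for genes whose mean reached 2, with Benjamini-Hochberg adjustment over all genes tested. Fold changes are on that scale, which understates those of low genes. All values (100% at a tolerance of 0.001 reads) were whole multiples of 1 read in each library, so reads were recovered and tested with edgeR 4.0.16 and DESeq2 1.42.0 as alternatives. edgeR called 671 genes higher and 777 lower in sorted cells, 851 and 92 with *ovo*-FLAG in OSCs, 991 and 264 in Δ*l(3)mbt* OSCs, 1652 and 1760 in fGS/OSS against OSCs, and 1856 and 2017 against Δ*l(3)mbt* OSCs.

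The text names the 20 members highest in fGS/OSS, members in a gene list, up to 8 called members per direction, the 5 highest in each sorted population and the 2 genes on each side of each threshold. Of the 31 symbols, 31 matched the BDGP6 annotation that gave coordinates. Variance between replicates was 1.52 to 83.1 times counting noise over 36 pairs, so no library was counted as a repeat of another. Other alternatives were pseudocounts of 0.5 and 5, filters at a mean of 10 or none, quantile normalization, a replicate block, leaving out each replicate, and other limits of membership.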

Additional observations from a re-analysis of the deposited data

Results flagged for a closer look

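Of 93 sets of 4 cell line libraries (31 genes in 3 lines), 10 had a library apart from the other 3 by Dixon's criterion. For normally distributed values chance does this for about 1 set in 20. The sets of both OSC lines hold few reads and need not follow that distribution, so the rate is no measure for the 10. In fGS/OSS replicate 4 was low for *CG1136* (302 against 399 in each of the others) and high for *Syn* (295 against 263 to 268). In OSCs replicate 1 was high for *CG30377* (8.20 against 2.59 to 3.54), *CG11893* (6.66 against 0 to 1.06) and *fd102C* (2.56 against 0) and low for *CG6329* (1.02 against 4.72 to 5.28). Also in OSCs, replicate 2 was high for *Syn* (10.6 against 1.73 to 3.17) and replicate 4 for *Cbp53E* (0.864, a single read, against 0). In Δ*l(3)mbt* OSCs replicate 2 was high for *laza* (8.33 against 0.883 to 1.32) and *CG4927* (2.08 against 0).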

How the results depend on the processing

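Of 336 values of called genes under the alternatives, 294 kept their direction and their side of the threshold, 42 kept their direction and missed it, and none changed sign. Alternatives under which a called gene was too low to be tested are not among the 336. In OSCs *l(2)03659* had values under 11 alternatives and *Mec2* under 14. Of the 42, those outside the left-out libraries came from DESeq2, edgeR, quantile normalization, no filter, a pseudocount of 5 and the replicate block. Membership held 31 genes, 29 under scaling to library totals or TMM scaling (*inv* and *Gr64a* left), and 29 to 33 when a library was left out. Stricter limits (400 and 5) kept 7 genes and wider ones (100 and 20) gave 70. With these, 2 and 6 members were higher in *vas*-GFP+ cells and 1 and 12 lower, 3 and 16 were higher with *ovo*-FLAG in OSCs, and 3 and 14 were higher and 0 and 1 lower in Δ*l(3)mbt* OSCs. In sorted cells DESeq2 called 5 higher (with *CG30485*, *CG4927* and *clumsy*). Leaving out a library gave 2 to 5 higher and 4 to 6 lower, with 5 higher without *vas*-GFP+ replicate 3. With *ovo*-FLAG in OSCs a filter at a mean of 10 left 2 genes, both higher, and quantile normalization gave 5 higher and 2 lower (*CG4213* and *CG11893*). Leaving out a library gave 6 to 9 higher and 0 to 2 lower, with 6 higher without empty vector replicate 2 and 2 lower (*CG4213* and *CG11893*) without *ovo*-FLAG replicate 3. For Δ*l(3)mbt* OSCs the filter at 10 left 3 higher of 6, no filter gave 9 higher (with *Gr64a* and *laza*), quantile normalization gave 2 lower (with *CG4213*), and 0 were lower under edgeR, DESeq2, no filter, a pseudocount of 5 and the replicate block. Leaving out a library there gave 5 to 9 higher and 0 to 1 lower. Without the shallow empty vector replicate 3, with 1632058 reads, 9 were higher, with *ATPsynepsilonL*, *CG30377* and *lncRNA:CR43650* but not *Cyp6a20*. For the lists, leaving out a library gave 114 to 122 higher and 93 to 100 lower against OSCs and 114 to 119 and 114 to 122 against Δ*l(3)mbt* OSCs. Fewer genes tested account for the counts under the stricter filter and membership, and the cause of the other changes was not tested. Same-numbered libraries did not deviate together (correlations from −0.044 to 0.066), so replicate numbers were not taken to pair samples. With a replicate block the counts were 2 higher and 5 lower in sorted cells, 10 and 0 with *ovo*-FLAG in OSCs, 7 and 0 in Δ*l(3)mbt* OSCs, and for the lists 120 and 98 against OSCs and 117 and 123 against Δ*l(3)mbt* OSCs. Few reads per low gene in the OSC lines limit how small a response could be seen.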
